A study of Mus musculus with 4 samples.

Results

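The collagen genes were the protein-coding genes whose GENCODE symbol is *Col*, a type number, the letter a and a chain number. They numbered 44 among the 21980 protein-coding genes and 55573 gene identifiers of the count files, and each had at least 1 read in the series. The RNA came from FACS-enriched tdTomato-positive cells of mouse embryos at E16, counted from the day of insemination as E1. All embryos carried *Hmx3-Cre*, which drives recombination in cells that express the homeobox gene *Hmx3* and in their descendants, and a *tdTomato* reporter on a C57BL/6J background. WT embryos were *Dnmt1* wild type and KO embryos carried the *Dnmt1 loxP2* allele, whose exons 4 and 5 are removed by Cre to leave a null allele of this maintenance DNA methyltransferase. The labels describe the cells as premature *Hmx3*-derived interneurons of the basal telencephalon, and the study names the preoptic area. Cells were pooled from 12 WT and 6 KO embryos, and each genotype gave 2 libraries, called biological replicates in the labels and technical duplicates of pooled samples in the study's methods, so that every SD and p-value below measures the spread between libraries, which may be technical.

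Collagens are secreted or membrane proteins in which 3 chains wind into a triple helix. Fibrillar collagens are trimmed outside the cell and packed into the fibrils of connective tissue, whereas type IV collagen forms the mesh of the basement membrane, the sheet that underlies endothelium and the pial surface and encloses pericytes and smooth muscle cells. Types XV and XVIII are further basement membrane collagens, and the fibril-associated collagens (FACITs) sit on the surface of fibrils. In the brain most collagen belongs to vessels and meninges, and collagen transcripts are scarce in neurons.

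The 4 libraries held between 8075102 and 9995968 counted reads, of which collagen genes took 0.0511% in WT 1, 0.0655% in WT 2, 0.0884% in KO 1 and 0.0941% in KO 2. The share was thus low throughout and higher in both KO libraries. *Dnmt1*, the targeted gene, had 3103 and 4557 reads in WT 1 and WT 2 and 2383 and 2552 in KO 1 and KO 2 (log2 fold change −0.56 ± 0.14 SE, edgeR quasi-likelihood test, Benjamini-Hochberg adjusted p = 0.0511). The KO libraries were lower without overlap, just short of the threshold, and reads 3′ of the deleted exons were counted too. The WT pair differed more than the KO pair, with a biological coefficient of variation of 0.234 against 0.103, and mitochondrial ribosomal RNA took 8.66% of reads in WT 1 and 1.51% to 2.32% elsewhere.

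The cells differed between genotypes in markers of other cell types, and these values stand beside every result below (over all 16832 genes tested, 7.33% were called higher in KO and 0.57% lower). Of 12 astrocyte markers all 12 were higher in KO, and their summed level was 236 to 245 CPM (counts scaled by library size) in WT and 4382 to 4621 in KO, led by the glutamate transporter *Slc1a2*. Of 12 mural cell (pericyte and smooth muscle) markers 9 were higher, with a sum of 317 to 337 CPM in WT and 836 to 898 in KO, of which *Cspg4*, shared with oligodendrocyte precursors and not called, supplied 252 and 263 CPM in WT and 320 and 379 in KO. The other 11 mural markers summed to 64.5 and 73.3 CPM in WT and 516 and 519 in KO, and the smooth muscle actin *Acta2* had 0 reads in both WT libraries against 652 and 800 in KO. Oligodendrocyte lineage markers (6 of 10 higher) summed to 1160 to 1228 CPM in WT and 1870 to 1871 in KO, and microglia markers (2 of 8 tested higher) to 34.9 to 44.2 and 78.1 to 78.4. Markers of endothelium and fibroblasts stood at lower levels. Endothelial markers (0 of 9 tested called) summed to 22.8 to 24.98 CPM in WT and 28.7 to 31.3 in KO, and fibroblast markers (2 of 6 tested higher) to 23.1 to 23.4 and 33.9 to 37.1, the called ones being *Mgp* (1 and 0 reads in WT, 32 and 44 in KO) and *Foxc1* (11 and 13 against 44 and 48). The most abundant fibroblast marker, *Fbln1*, had 117 and 156 reads in WT and 152 and 203 in KO, and *Dcn*, not tested, had 7 and 19 against 2 and 9. Choroid plexus markers summed to 48.3 to 63.6 CPM in WT and 6.90 to 8.81 in KO, with 1 of 4 tested called lower, *Ttr*, without which the sum was 7.45 and 8.33 CPM in WT and 5.94 and 7.71 in KO, and interneuron and neuron markers stood at 6167 to 6808 CPM in WT and 4777 to 4788 in KO, with 1 of 14 (*Stmn2*) called lower. Called markers nearly absent from WT, such as *Acta2*, *Gfap* and *Mgp*, passed the filter on low counts only through KO. A lower call was not possible for them. The part of the marker differences in the collagen values was not tested. In bulk RNA a different number of cells of a type and a different amount of RNA per cell cannot be told apart.

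Upstream sequences of 7 genes are shown first, because DNMT1 acts on the CpG dinucleotide and these belong to collagens on which the results turn: the called *Col4a5*, *Col5a3*, *Col11a2*, *Col27a1* and *Col16a1*, then *Col4a6*, the head-to-head partner of *Col4a5*, and *Col3a1*, which was not called. Each is the longest stretch free of GENCODE exons within the 250 bases before the RefSeq start (GRCm38.p6), written 5′ to 3′ on the gene's strand, with every CG in capitals.
*Col4a5*: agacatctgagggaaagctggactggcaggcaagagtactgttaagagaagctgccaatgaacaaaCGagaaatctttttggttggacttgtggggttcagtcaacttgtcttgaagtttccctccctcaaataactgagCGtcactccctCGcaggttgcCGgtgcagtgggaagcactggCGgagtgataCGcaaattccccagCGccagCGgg
*Col4a6*: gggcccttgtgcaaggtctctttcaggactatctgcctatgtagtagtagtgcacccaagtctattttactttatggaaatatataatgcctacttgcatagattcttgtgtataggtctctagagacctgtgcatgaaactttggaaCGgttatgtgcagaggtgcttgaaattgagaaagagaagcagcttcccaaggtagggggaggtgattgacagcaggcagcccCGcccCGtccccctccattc
*Col5a3*: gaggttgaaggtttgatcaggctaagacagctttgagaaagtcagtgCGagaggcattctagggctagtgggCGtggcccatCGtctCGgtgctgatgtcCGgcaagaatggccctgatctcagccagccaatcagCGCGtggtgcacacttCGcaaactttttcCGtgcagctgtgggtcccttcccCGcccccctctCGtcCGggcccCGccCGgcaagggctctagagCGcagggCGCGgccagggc
*Col11a2*: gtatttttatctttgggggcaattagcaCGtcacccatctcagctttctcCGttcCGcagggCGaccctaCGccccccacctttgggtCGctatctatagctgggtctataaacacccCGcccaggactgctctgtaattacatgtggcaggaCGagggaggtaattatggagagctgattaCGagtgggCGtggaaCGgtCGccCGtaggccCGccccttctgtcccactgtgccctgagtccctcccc
*Col27a1*: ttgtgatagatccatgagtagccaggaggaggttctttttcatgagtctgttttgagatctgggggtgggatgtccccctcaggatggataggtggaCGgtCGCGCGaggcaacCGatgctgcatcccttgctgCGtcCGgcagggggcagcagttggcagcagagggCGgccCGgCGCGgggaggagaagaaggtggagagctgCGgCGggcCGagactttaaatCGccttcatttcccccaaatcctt
*Col16a1*: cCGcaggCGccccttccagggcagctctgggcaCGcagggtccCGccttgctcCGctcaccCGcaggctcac
*Col3a1*: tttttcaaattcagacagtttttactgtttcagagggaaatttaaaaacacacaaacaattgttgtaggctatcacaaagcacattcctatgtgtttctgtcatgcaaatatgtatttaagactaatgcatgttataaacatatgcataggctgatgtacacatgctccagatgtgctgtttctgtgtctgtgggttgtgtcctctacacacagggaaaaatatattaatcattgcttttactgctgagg
The stretches lie at chrX:141475169-141475384 (*Col4a5*, plus strand), chrX:141474077-141474326 (*Col4a6*, minus), chr9:20815068-20815317 (*Col5a3*, minus), chr17:34038888-34039137 (*Col11a2*, plus), chr4:63215162-63215411 (*Col27a1*, plus), chr4:130047590-130047661 (*Col16a1*, plus) and chr1:45311288-45311537 (*Col3a1*, plus). The RefSeq start of *Col11a2* lies upstream of its GENCODE start. That of *Col27a1* lies downstream of its GENCODE start at chr4:63214004, so its stretch lies inside the GENCODE gene, between exons. Over the full 250 bases, CG occurred 17 times before *Col5a3*, 15 before *Col27a1*, 14 before *Col11a2*, 21 before *Col16a1* and 10 before *Col4a5*, against 3 before *Col4a6* and 0 before *Col3a1*. The median over 32851 RefSeq windows of the same length was 6, and 37.8% of them held 10 or more. The window matched 35 of the 44 collagens (38 windows, range 0 to 31, 19 with 10 or more), and a GC box, GGGCGG or its complement CCGCCC, was present in 22 of the 38 against 32.7% of all windows. All 7 windows of the called members held 10 or more CGs (10 to 31, median 17, the highest being *Col4a1* at 31 and *Col4a2* at 26, whose windows lie within annotated exons), as did 12 of the 31 windows of members not called or not tested (0 to 28, median 7). The ranges overlap, with *Col5a1* at 28 CGs among those not called, and the tally is a description with no test. Methylation was not analysed here, and the letters alone say nothing of it.

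Of the 44 collagens, 37 had enough reads to be tested. The 7 others (*Col4a3*, *Col4a4*, *Col6a6*, *Col8a1*, *Col8a2*, *Col13a1* and *Col17a1*) had between 0 and 18 reads per library, and among those tested *Col10a1* and *Col24a1* passed the filter on low counts only through their KO libraries. At an adjusted p under 0.05, 7 of the 37 (18.9%) were higher in KO, where 7.33% of all 16832 genes tested were, and 0 were lower, where 0.57% of all genes were. DESeq2 also called 0 lower. An unadjusted edgeR p under 0.05 was reached by 12 of the 37, against 3813 of the 16832 genes tested. The 7 called higher were *Col27a1*, *Col5a3*, *Col4a5*, *Col11a2*, *Col16a1*, *Col4a2* and *Col4a1*. Both KO libraries lay above both WT libraries for 17 of the 37 (28.3% of all genes) and below for 1, *Col2a1* (25.2% of all genes), while of the untested members *Col4a3* lay wholly above and *Col4a4* wholly below on a few reads. Across the 37 the median log2 fold change was 0.33, with 26 positive and 11 negative, against −0.03 over all genes tested. Without *Col10a1* and *Col24a1* the median was 0.26, and 15 of 35 lay wholly above. The count of 7 leaned on KO 2: without it 4 collagens were called, *Col4a1*, *Col4a2* and *Col16a1* dropping out, whereas the omission of KO 1 lost only *Col4a1*. Without WT 1, 9 were called higher and 3 lower (*Col2a1*, *Col23a1* and *Col26a1*), and without WT 2 there were 10 higher and 0 lower. *Col1a1* joined the 7 in both, with *Col19a1* in the former and *Col7a1* and *Col20a1* in the latter. Those fits also called more of all genes, 14.2% higher and 7.15% lower without WT 1 and 11.2% higher and 12.0% lower without WT 2, against 5.08% higher without KO 2 and 5.35% higher without KO 1.

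**Figure D1:**
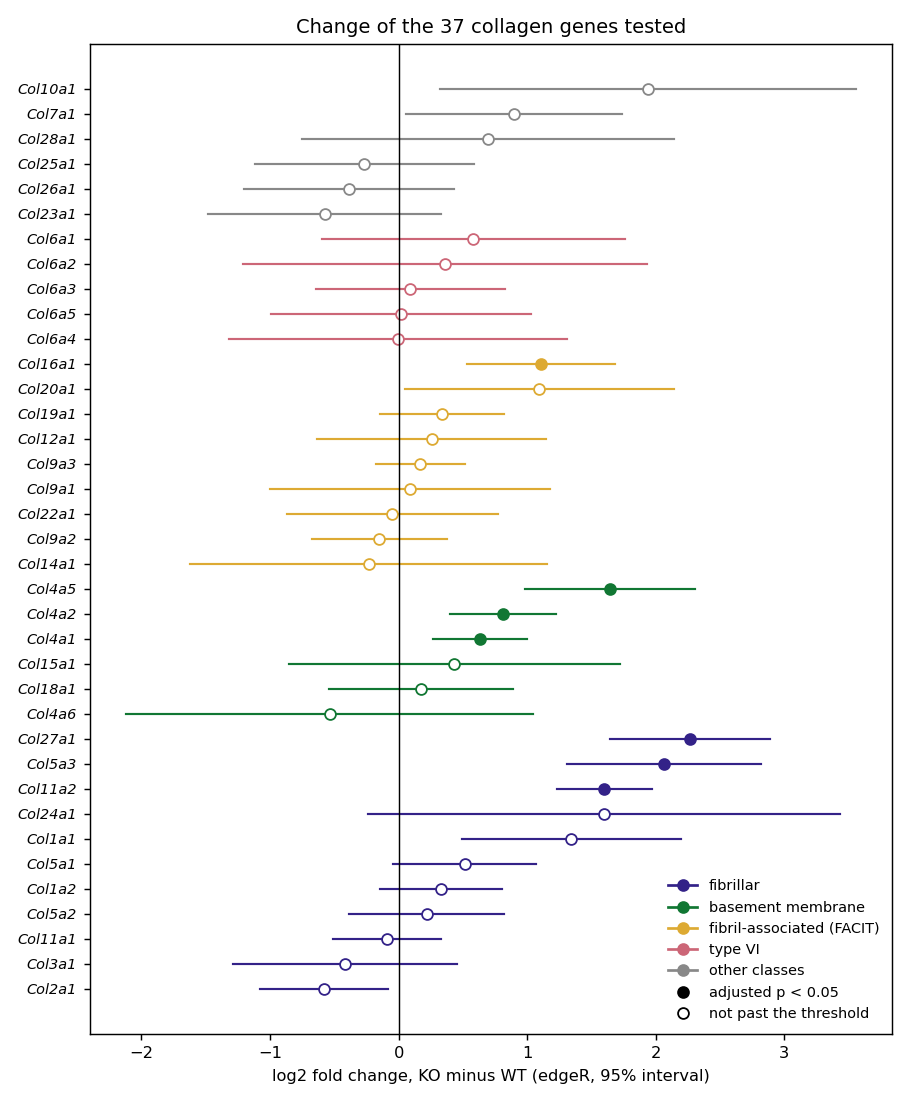
Log2 fold change, KO minus WT, of the 37 collagen genes tested, by class, with the 95% interval from edgeR; filled points passed an adjusted p of 0.05. The 7 filled points lie between 0.63 and 2.27, and the unfilled points lie between −0.58 and 1.94.

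Fibrillar and basement membrane collagens were then compared, and how far apart their medians lay depended on how the classes were drawn. The 11 fibrillar genes, all tested, had a median log2 fold change of 0.51 (range −0.58 to 2.27), 3 of them called higher, 7 in which KO lay wholly above WT and 1 wholly below. Without *Col24a1*, which was tested only through its KO libraries, the median of the other 10 was 0.42, with 6 wholly above. Of the 8 basement membrane genes, the 6 tested had a median of 0.53 (range −0.54 to 1.65), with 3 called higher, 3 wholly above and 0 wholly below. Calls in the basement membrane class depended on single libraries. Its median was 0.0376 without WT 1, 0.80 without WT 2 and 0.29 without KO 1. The filter on low counts was applied anew in each of these fits, so the medians are not all over the same 6 genes. The value of 0.0376 is that of *Col15a1* itself. With the fibrillar class narrowed to types I, II, III, V and XI and the basement membrane class to type IV, the medians were 0.33 and 0.72. Summed over the class, fibrillar transcripts came to 22.3 CPM per kilobase of exon in WT 1, 24.4 in WT 2, 42.4 in KO 1 and 40.2 in KO 2. Basement membrane transcripts came to 19.7, 22.5, 31.0 and 37.9 in the same order. Both sums were higher in each KO library than in either WT library. That also held for the FACIT sum, at 35.0 and 41.1 in WT and 43.7 and 48.9 in KO. The ratio of the basement membrane to the fibrillar sum was 0.884 in WT 1, 0.922 in WT 2, 0.732 in KO 1 and 0.943 in KO 2, so that the genotypes overlapped.

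**Figure D2:**
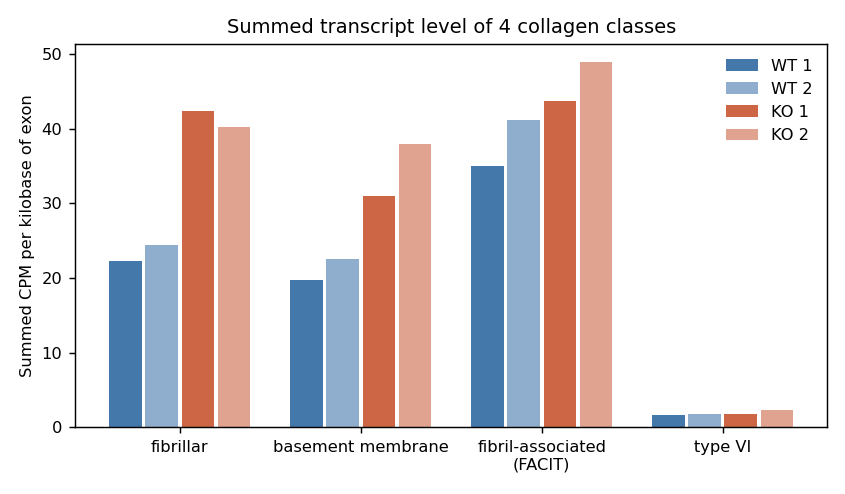
Summed level in CPM per kilobase of exon of 4 collagen classes in each library, WT in blue and KO in orange. KO bars stand above WT bars for fibrillar collagens (40.2 and 42.4 against 22.3 and 24.4) and for basement membrane collagens (31.0 and 37.9 against 19.7 and 22.5). The FACIT bars differ less, with KO again above WT (43.7 and 48.9 against 35.0 and 41.1).

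Among basement membrane collagens, *Col4a1* and *Col4a2* encode the chains of the ubiquitous type IV network, made of 2 α1 chains and 1 α2 chain, and they supplied 87.5% to 89.5% of the class's CPM in every library. *Col4a1* (chr8:11198423-11312826, minus strand) had 599 and 827 reads in WT 1 and WT 2 and 920 and 1193 in KO 1 and KO 2, that is 77.7 ± 4.72 CPM (SD, n = 2) in WT and 120 ± 15.6 in KO. Its libraries did not overlap, and the log2 fold change was 0.63 ± 0.16 SE with an edgeR adjusted p of 0.0492. The call was lost without KO 1 (log2 0.77, edgeR adjusted p = 0.113) and without KO 2 (0.50, adjusted p = 0.596). *Col4a2* (chr8:11312805-11449287, plus strand) had 405 and 600 reads in WT and 701 and 982 in KO, or 54.5 ± 6.02 and 95.7 ± 17.5 CPM. It rose by 0.81 ± 0.18 on the log2 scale (adjusted p = 0.0294), again without overlap, KO 2 being the highest, and without KO 2 its log2 fold change was 0.61 (adjusted p = 0.35). The genes start head to head, and their annotated first exons share 22 bases, 0.295% of the exon length of *Col4a1*. Per kilobase the ratio of *Col4a1* to *Col4a2* was 1.31 in WT 1, 1.22 in WT 2, 1.16 in KO 1 and 1.08 in KO 2, so that *Col4a1* was the more abundant in each.

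The other type IV genes lie in head-to-head pairs too. *Col4a5* (chrX:141475385-141689234, plus strand) encodes a chain of the specialised networks of kidney, eye and smooth muscle, in which α5 joins α6 or α3 and α4. It had 34 and 40 reads in WT 1 and WT 2 and 109 and 114 in KO 1 and KO 2, or 4.07 ± 0.213 and 12.8 ± 0.285 CPM. The pairs were tight and far apart, and the gene rose 3.13-fold (log2 1.65 ± 0.29 SE, adjusted p = 0.00978). *Col4a6*, which starts 1308 bases away from *Col4a5* on the opposite strand, had 20 reads in each WT library and 5 and 22 in KO 1 and KO 2 (log2 fold change −0.54, 95% interval −2.12 to 1.05, adjusted p = 0.689). The interval is wide and the KO pair disagreed, so at this depth a fall or a rise of *Col4a6* could not be seen. *Col4a3* had 0 and 2 reads in WT and 5 and 4 in KO, and *Col4a4* had 8 and 18 in WT and 1 and 7 in KO, and neither was tested. *Col18a1*, whose C-terminal fragment is endostatin, was at 52 and 98 reads in WT and 71 and 89 in KO (0.18, adjusted p = 0.781), and *Col15a1* at 10 and 25 against 26 and 18 (0.43, adjusted p = 0.69). Mural markers, from cells that lie within basement membrane, moved in the same direction as *Col4a1*, *Col4a2* and *Col4a5*, summing without *Cspg4* to 64.5 and 73.3 CPM in WT and 516 and 519 in KO. Astrocyte, oligodendrocyte lineage and microglia sums moved that way too, and 0 of 9 endothelial markers tested were called. The part of any of these in the result was not tested.

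Among fibrillar collagens, types I and III are the main ones of skin, bone and vessel wall. *Col1a1*, which encodes the α1 chain of type I collagen, had 32 and 25 reads in WT 1 and WT 2 and 72 and 69 in KO 1 and KO 2, or 3.21 ± 1.08 and 8.08 ± 0.679 CPM. KO lay above WT without overlap (log2 fold change 1.34 ± 0.37 SE), yet the adjusted p was 0.0699, and the gene was called in 4 of 9 alternative fits that used all 4 libraries. *Col1a2*, its α2 partner, had 124 and 167 reads in WT and 164 and 185 in KO (0.33 ± 0.21, adjusted p = 0.385). *Col3a1*, which encodes the single chain of type III collagen of vessels and meninges, had 83 and 137 reads in WT and 102 and 52 in KO (−0.42, 95% interval −1.29 to 0.45, adjusted p = 0.554), the KO pair being the wider. Its neighbour *Col5a2*, which lies 24614 bases away tail to tail, had 109 and 195 reads in WT and 184 and 148 in KO (0.22, adjusted p = 0.661). None of these 4 genes passed the test.

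The 3 fibrillar collagens that were called were *Col11a2*, *Col5a3* and *Col27a1*. *Col11a2* (chr17:34039437-34066685, plus strand) encodes the α2 chain of type XI collagen, known from cartilage and the inner ear, where it sets fibril diameter. It had 335 and 512 reads in WT 1 and WT 2 and 1194 and 1241 in KO 1 and KO 2, or 45.9 ± 6.07 and 139 ± 3.73 CPM. The KO libraries lay close together, and the rise of 3.03-fold (log2 1.60 ± 0.16 SE) had the lowest adjusted p of any collagen, 0.000509. *Col11a2* made up 19.3% of fibrillar CPM in WT 1 and 22.0% in WT 2 but 39.1% in KO 1 and 40.2% in KO 2, and without it the fibrillar sum was 174 and 177 CPM in WT and 221 and 203 in KO. *Col11a1*, the α1 chain of the same collagen, had 648 and 639 reads in WT and 624 and 544 in KO (−0.09, 95% interval −0.51 to 0.33, adjusted p = 0.81), and its interval lies below that of *Col11a2* (1.23 to 1.97), although the difference between the chains was not tested.

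*Col5a3* (chr9:20770050-20815067, minus strand) encodes the α3 chain of type V collagen, a fibril-nucleating collagen. It had 31 and 80 reads in WT 1 and WT 2 and 207 and 227 in KO 1 and KO 2, or 5.84 ± 2.82 and 24.8 ± 0.276 CPM. The WT pair differed from each other but not nearly as far as from KO, and the gene rose 4.18-fold (log2 2.06 ± 0.33 SE, adjusted p = 0.0062). Its log2 fold change was 2.67 without WT 2 and 1.65 without WT 1. *Col5a1*, the α1 chain, had 88 and 131 reads in WT and 130 and 168 in KO (0.51, adjusted p = 0.249). *Col27a1* (chr4:63214004-63334991, plus strand) encodes a fibrillar collagen of developing cartilage and had the largest fitted change of the 37. Its reads were 32 and 55 in WT and 203 and 194 in KO, or 4.68 ± 1.00 and 22.8 ± 1.96 CPM, a 4.81-fold rise (log2 2.27 ± 0.27 SE, adjusted p = 0.00138). Its class mate *Col24a1* had 1 and 7 reads in WT and 11 and 12 in KO (adjusted p = 0.279). *Col2a1*, the cartilage collagen whose fibrils hold type XI, was the 1 tested member with KO wholly below WT: 257 and 375 reads in WT and 160 and 245 in KO, or 34.3 and 23.0 CPM on average (−0.58 ± 0.22 SE, adjusted p = 0.163, or 0.00689 after a correction for transcript length and GC content, a fit that called 5.15% of all genes lower). *Col11a2*, *Col5a3*, *Col27a1* and *Col4a5* were called in each of 9 alternative fits and with any single library left out. Astrocyte markers, at 236 to 245 CPM in WT and 4382 to 4621 in KO, moved the same way as these genes, as did mural markers, and their part in the result was not tested.

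**Figure D3:**
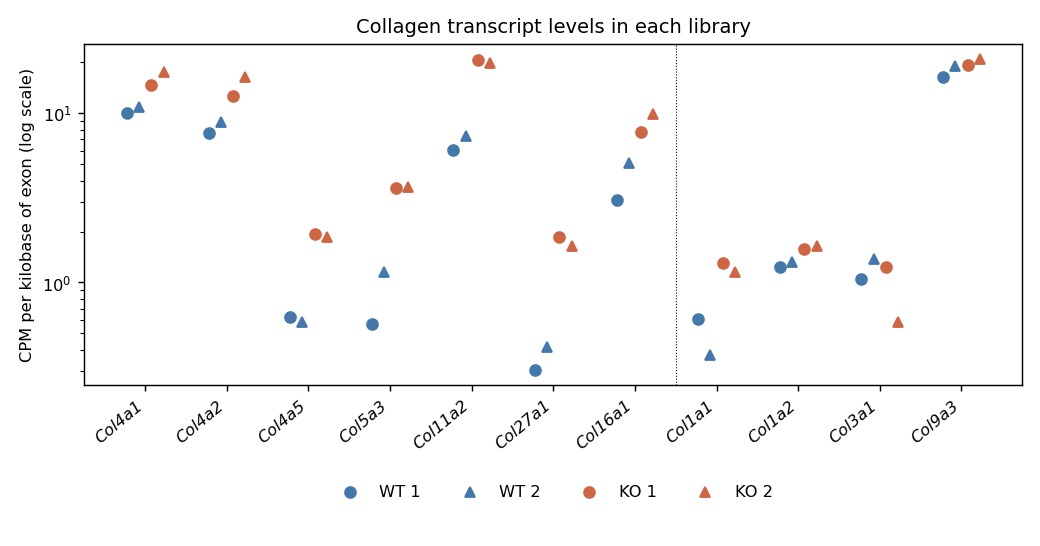
Level of 11 collagen genes in each library, in CPM per kilobase of exon on a log scale; the 7 left of the dotted line were called higher in KO. *Col27a1*, *Col5a3*, *Col4a5* and *Col11a2* show tight KO pairs well above WT, *Col4a1* and *Col4a2* a smaller step, and *Col1a2*, *Col3a1* and *Col9a3* no call.

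Ratios between chains of 1 collagen type, taken per kilobase within a library, do not depend on the scaling of libraries. *Col11a2* to *Col11a1* was 0.958 in WT 1, 1.49 in WT 2, 3.55 in KO 1 and 4.23 in KO 2. *Col5a3* to *Col5a1* was 0.439, 0.761, 1.99 and 1.68. *Col1a1* to *Col1a2* was 0.489, 0.283, 0.831 and 0.706. In these 3 pairs the genotypes did not overlap, the chain named first taking a larger part in KO than in WT. *Col4a5* to *Col4a6* was 2.02, 2.37, 25.9 and 6.15, and the KO 1 value rests on 5 reads of *Col4a6*. *Col4a1* to *Col4a2*, given above, was lower in both KO libraries than in either WT library. The genotypes overlapped in 3 further pairs. *Col5a1* to *Col5a2* was 0.912, 0.759, 0.798 and 1.28. *Col6a1* to *Col6a2* was 2.28, 1.01, 2.85 and 1.16, and *Col9a3* to *Col9a1* was 33.5, 15.9, 23.3 and 20.8. The ratios are a description and carry no test.

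**Figure D4:**
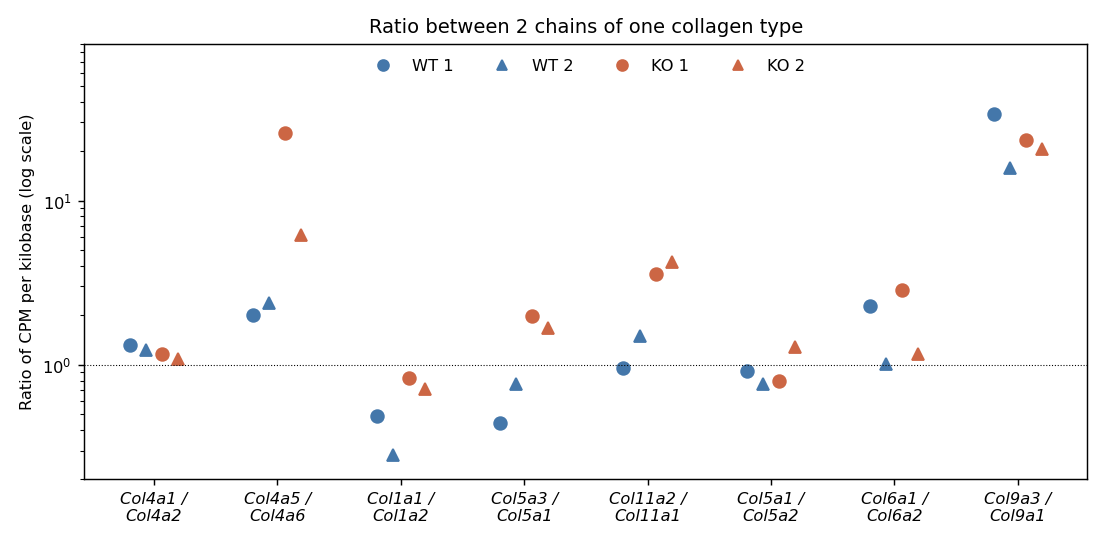
Ratio of the level per kilobase between chains of 1 collagen type in each library, on a log scale, with a dotted line at equality. *Col4a1* to *Col4a2* is 1.31 and 1.22 in WT and 1.16 and 1.08 in KO, *Col11a2* to *Col11a1* is 0.958 and 1.49 in WT and 3.55 and 4.23 in KO, and the ratios of *Col5a1* to *Col5a2*, *Col6a1* to *Col6a2* and *Col9a3* to *Col9a1* overlap between genotypes.

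Per kilobase of exon, the FACIT class held the most abundant collagen transcript of the WT cells. *Col9a3*, the α3 chain of type IX collagen that decorates type II fibrils, had 509 and 748 reads in WT 1 and WT 2 and 620 and 726 in KO 1 and KO 2, or 17.7 CPM per kilobase on average in WT and 19.9 in KO (log2 fold change 0.17, 95% interval −0.18 to 0.52, adjusted p = 0.548). Next in WT stood *Col4a1* at 10.4 and *Col4a2* at 8.24 CPM per kilobase, whereas in KO *Col11a2* came first at 20.3, level with *Col9a3* within the spread of the libraries, followed by *Col4a1* at 16.1. An antisense neighbour, *Tcfl5*, overlaps 6.07% of the exon length of *Col9a3*, so that without a stated strand setting a part of its reads is uncertain. *Col9a2* had 174 and 277 reads in WT and 157 and 230 in KO (−0.15, adjusted p = 0.745), and *Col9a1* 20 and 62 against 35 and 46. The type IX chains, whose collagen is known from cartilage and the eye, were therefore present at unequal levels, with *Col9a3* far above *Col9a1*, and had no called member.

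The 1 FACIT called was *Col16a1* (chr4:130047840-130099283, plus strand), whose product is found with fibrillar networks and microfibrils. It had 167 and 349 reads in WT 1 and WT 2 and 438 and 605 in KO 1 and KO 2, or 27.5 ± 9.52 and 59.4 ± 10.3 CPM, a 2.15-fold rise (log2 1.10 ± 0.25 SE, adjusted p = 0.033). The libraries did not overlap, although each pair was loose, and without KO 2 the log2 fold change was 0.92 (adjusted p = 0.0658). *Col19a1*, found near basement membranes, had 362 and 310 reads in WT and 420 and 408 in KO (0.34, adjusted p = 0.381). *Col20a1* had 14 and 31 against 52 and 38 (1.10, adjusted p = 0.203), and the other FACITs had log2 fold changes between −0.23 and 0.26. The class median was 0.17 over 9 genes, 3 of them with KO wholly above WT, a share near the 28.3% of all genes.

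The remaining classes had no called member. The beaded-filament collagen of type VI, which surrounds many mesenchymal cells, had 6 genes, 5 of them tested, with log2 fold changes between about 0 and 0.58 and a median of 0.09, and its sum was 1.70 and 1.82 CPM per kilobase in WT and 1.74 and 2.36 in KO. *Col7a1*, the anchoring fibril collagen of the skin, had 35 and 92 reads in WT and 99 and 122 in KO (0.90 ± 0.36 SE, adjusted p = 0.194). *Col10a1*, a marker of hypertrophic cartilage, had 2 and 5 against 14 and 12 (1.94, adjusted p = 0.15). The transmembrane collagens *Col23a1* and *Col25a1* had values of −0.57 and −0.27, and *Col26a1* and *Col28a1* of −0.39 and 0.70.

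Genes that make, process and bind collagen were examined next, as 6 lists of 71 genes, of which 61 were tested, 16 were called higher and 0 lower (7.33% and 0.57% of all genes, as above). An unadjusted edgeR p under 0.05 was reached by 27 of the 61, against 3813 of the 16832 genes tested. The median log2 fold change of the 61 was 0.42. In the list for modification and folding 4 of 18 rose: *P4ha2*, a prolyl 4-hydroxylase subunit (1.97), the glycosyltransferase *Colgalt2* (1.87), the lysyl hydroxylase *Plod1* (1.68, 93 and 119 reads in WT and 309 and 342 in KO) and the foldase *Fkbp10* (1.49). *Serpinh1*, the collagen chaperone HSP47, had 369 and 527 reads in WT and 577 and 697 in KO (0.58, adjusted p = 0.0625). Outside the cell, the propeptidase enhancer *Pcolce* was the 1 of 7 genes of propeptide cleavage that rose (2.16, adjusted p = 0.0487, from 11 and 7 to 32 and 48 reads). Among 7 tested genes of crosslinking and fibril assembly *Sparc*, a collagen-binding matricellular protein, rose from 247 and 358 to 529 and 639 reads (1.02 ± 0.16 SE, adjusted p = 0.00599), while *Lox*, the lysyl oxidase, had 0 and 9 reads in WT and 5 and 4 in KO and was not tested.

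Of 10 collagen receptors tested, 2 rose: the inhibitory receptor *Lair1* (3.28, from 9 and 10 to 83 and 96 reads) and the integrin *Itga1* (2.52, from 44 and 32 to 221 and 204 reads). *Lair1* passed the filter on low counts only through its KO libraries, so a lower call was not possible for it. *Ddr1*, the receptor tyrosine kinase of epithelia and oligodendrocyte lineage cells, did not pass (0.02, adjusted p = 0.971), nor did its relative *Ddr2* (2.22, 21 and 5 against 54 and 68 reads, adjusted p = 0.0791), and the platelet receptor *Gp6* had 0 reads. Of 7 tested turnover genes 4 rose, the inhibitors *Timp4* (2.17) and *Timp3* (1.90) as well as the proteases *Mmp9* (1.46) and *Mmp14* (1.29). Basement membrane partners had 4 of 12 higher, the laminin chains *Lama2* (3.89, from 34 and 46 to 575 and 564 reads), *Lamb2* (2.49), *Lamc3* (1.85) and *Lama5* (1.51). The members that moved in these lists include both makers and degraders of matrix, and the same marker differences given above moved with them.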

How the data were processed

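RNA of sorted cells was sequenced as 4 libraries (WT 1, WT 2, KO 1, KO 2). The deposited values are raw read counts per Ensembl gene, made by the authors with STAR 2.5.2a and featureCounts 1.5.0-p1 after CASAVA 1.8.2 on mm10 (GRCm38), per the submitters' processing notes; the annotation release and strand setting are not given in the sources used here. Where counting ignored strand, overlapping antisense reads cannot be told apart.

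GENCODE M21 named 55480 of 55573 identifiers. Genes passing edgeR's filterByExpr were tested with edgeR 4.0.16 (R 4.3.3, TMM, quasi-likelihood, all 4 libraries, no block), and p-values were adjusted over all 16832 genes (Benjamini-Hochberg, threshold 0.05). CPM used TMM-scaled library sizes; 3 reads equal 0.294 to 0.372 CPM. Per-kilobase values divide by the union of exons. Intervals are 95%. DESeq2 1.42.0, limma-voom (limma 3.58.1), other scalings and filters, a replicate block, a length and GC correction centred so as not to rescale libraries, and leaving out single libraries were alternatives, and the scripts were tested on simulated data.

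Every collagen may be named. Values for each library are given for called members, the 3 most abundant per kilobase in each genotype, and *Col4a1*, *Col4a2*, *Col1a1*, *Col1a2* and *Col3a1*; pathway genes are the called ones with the largest changes, at most 5 per list, with *Serpinh1*, *Lox*, *Ddr1*, *Ddr2* and *Sparc* whatever they did. Further members shown with values, the promoters shown and the chain ratios were chosen after their values were seen. Members and lists were chosen with earlier results of these data known. RefSeq promoter windows gave the sequences.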

Additional observations from a re-analysis of the deposited data

How the results depend on the processing

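The 7 collagens called higher were also called by DESeq2, by limma-voom, with other scalings and filters, under the replicate block and after the length and GC correction. *Col1a1* joined them with library sizes alone, with no filter and under the replicate block (8 called in each), and *Col1a1* and *Col19a1* under the replicate block with the length and GC correction (9). *Col2a1* was the 1 collagen called lower after the length and GC correction, with or without the block. Leaving out 1 library gave 4 to 10 collagens higher and 0 to 3 lower, and 1 to 3 basement membrane collagens higher. The 3 lower calls (*Col2a1*, *Col23a1*, *Col26a1*) came without WT 1, the 10 higher ones without WT 2, and the 4 without KO 2; in each such fit the lone library of a genotype is assumed to vary like the other genotype.

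Over all genes, 1233 higher and 96 lower became 1625 and 619 under the replicate block, 1844 and 867 after the length and GC correction, and 2157 and 1339 with both. Genes called lower numbered 247 with DESeq2, 573 with no filter and 52 with at least 10 counts in every library. Leaving out 1 library gave 900 to 2578 higher and 51 to 2180 lower. The fibrillar median of 0.51 was 0.35 after the length and GC correction with or without the block, and 0.33 for types I, II, III, V and XI only. The basement membrane median of 0.53 was 0.41 after the correction, 0.40 with the block as well, 0.67 with at least 10 counts in every library, 0.72 for type IV only, and 0.0376 to 0.80 with 1 library left out. The set of genes tested changed too, since at least 10 counts left out *Col4a6* and the filter was applied anew without each library. The median of all genes moved from −0.03 to 0.08 with library sizes alone. What else lay behind these shifts was not tested.

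The replicate numbers are shared by the genotypes, but deviations of same-numbered libraries correlated only at 0.137 across genes, with 2 pairs, and nothing states a shared batch, so the block was not used for the values reported. With 2 libraries per genotype, the 7 untested collagens and those with a few reads per library, such as *Col4a6*, limit what the depth shows.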
